A study of Macaca mulatta with 6 samples.

Results

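Background tiles were the moderately CpG-populated stretches of the rhesus macaque (Macaca mulatta) autosomes that lie away from long runs of closely spaced CpGs. A tile was a 1 kb segment counted from base 1 of its chromosome, and it was a member when it held 5 to 19 listed CpGs (a cytosine followed by a guanine) and no part of it lay within 2000 bases of a CpG run. A run was an unbroken series of at least 40 CpGs with no gap over 50 bases between neighbours. The rule used chromosome and position only. It found 1601055 members among 2543398 autosomal tiles with a listed CpG, of which 940701 held 5 to 9 CpGs and 660354 held 10 to 19.

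The series profiled DNA methylation by bisulfite sequencing in blood mononuclear cells of 6 macaques, all adult females, 3 of low social rank (rank 5) and 3 of high social rank (rank 1). No genetic manipulation or drug treatment is named for either group. The table has 12 columns of values without names, and no label ties any of them to an animal, so methylation levels, read depth and the comparison of ranks were not analysed here. All values below describe positions, which belong to no single animal. They are full counts of the listed positions without replicates. No statistical test was made. Some differences are given with their spread over the 20 autosomes, and the others are of the autosomes pooled.

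In vertebrate genomes most CpGs outside CpG islands are methylated, and methylated cytosines mutate readily to thymine, so that most of the genome holds far fewer CpGs than its base composition would allow. CpG islands, which are often found at gene starts, escape this loss and appear as dense runs. Young interspersed repeats such as Alu elements of primates carry many CpGs of their own, and older copies have lost part of them. The background tiles lie between the islands and the CpG-poorest sequence.

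Of the autosomal tiles that hold any CpG, 62.9% were members, and these contained 58.7% of the autosomal CpGs, or 15157307 of 25805743. Tiles of 5 to 9 CpGs were 37.0% of the tiles and held 24.6% of the CpGs. Those of 10 to 19 were 26.0% of the tiles and held 34.1% of the CpGs, so the less frequent class held the larger part of the members' positions, 58.0%. A member had a median of 9 CpGs, with quartiles of 6 and 12. Its mean was 6.76 CpGs in the lower class and 13.3 in the upper class.

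Neither border of the members marked a break in the catalogue. Away from runs, tiles became steadily less frequent above 5 CpGs, the most frequent number. There were 228565 tiles of 5 CpGs just inside the lower limit and 224503 of 4 just outside it. Between the classes lay 140742 tiles of 9 CpGs and 119208 of 10. At the upper limit, 32202 tiles held 19 CpGs and 28676 held 20.

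Closeness to a run excluded few tiles, and these were richer in CpGs. Tiles of 5 to 19 CpGs within 2000 bases of a run numbered 39657, which is 2.42% of all tiles with that many CpGs. Tiles of 10 to 19 CpGs made up 41.2% of the members, against 64.4% of the excluded tiles. The members held 9.47 CpGs per tile and the excluded tiles held 11.6. The zone was set by 19251 autosomal runs.

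The balance between the classes differed between chromosomes by more than the members' total did. On chromosome 19, 51.1% of tiles holding a CpG were members, against between 60.2% and 66.7% on each of the other 19 autosomes. Tiles of 5 to 9 CpGs ranged from 18.1% of such tiles on chromosome 19 to 41.6% on chromosome 5. Tiles of 10 to 19 ranged from 18.6% on chromosome 5 to 35.9% on chromosome 16. The 10 to 19 share of the members was therefore lowest on chromosome 5, at 30.9%, and highest on chromosome 19, at 64.7%, a 2.09-fold range around a mean of 43.1% ± 8.81 (SD, n = 20 autosomes). Next to these ends of the order stood chromosome 12, at 34.5%, and chromosome 16, at 58.6%.

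The upper class outnumbered the lower on 4 autosomes. These were chromosomes 20, 10, 16 and 19, with 54.6%, 55.6%, 58.6% and 64.7% of their members in the upper class. On the other 16 autosomes the share stayed between 30.9% and 45.7%, so no autosome lay between 45.7% and 54.6%. The share of CpGs that lay in members was 31.95% for chromosome 19 and 66.3% for chromosome 5.

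**Figure D1:**
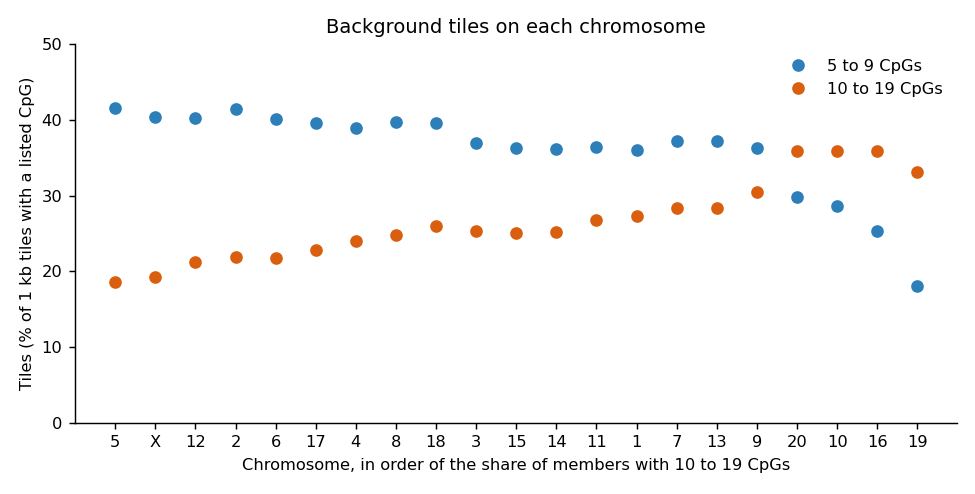
Percent of the 1 kb tiles with a listed CpG (y axis) that were background tiles of 5 to 9 CpGs (blue) and of 10 to 19 CpGs (orange), on the 20 autosomes and the X chromosome, ordered along the x axis by the share of members with 10 to 19 CpGs. The classes cross on the right, where chromosomes 20, 10, 16 and 19 had more tiles of 10 to 19 CpGs than of 5 to 9.

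Chromosomes with more runs had more of their members in the upper class, although every member lies clear of the runs. Over the 20 autosomes, the 10 to 19 share and the number of runs per Mb had a Pearson's r of 0.92 and a Spearman's rho of 0.90. Without the 2 autosomes farthest from the median number of runs, r was 0.92. With chromosome span, r was -0.57 and rho was -0.44. These are descriptions over chromosomes of a single catalogue, counted with the same limits of classes and runs, and CpGs per kb also differed between them, from 7.52 on chromosome 5 to 14.6 on chromosome 19.

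The same gradient was seen along the chromosomes. Among members 2 to 5 kb from the nearest run, 57.1% held 10 to 19 CpGs. The share was 53.4% at 10 to 20 kb, 44.6% at 50 to 100 kb, 31.1% at 200 to 500 kb and 24.7% beyond 500 kb. Over the 8 distance bins, each was lower than the one before. The nearest bin exceeded the farthest on 20 of 20 autosomes. Chromosomes still differed at equal distance, from 41.1% to 74.5% at 2 to 5 kb and from 20.9% to 39.4% beyond 500 kb. The tiles excluded for lying within 2000 bases, at 64.4%, were above the nearest bin.

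Members near chromosome ends were also more often of the upper class. In the first 1 Mb from either end (base 1 or the last listed CpG), 64.5% of 13861 members held 10 to 19 CpGs. The share was 64.8% at 1 to 2 Mb, 62.2% at 2 to 5 Mb, 52.8% at 5 to 10 Mb, 39.2% at 20 to 50 Mb and 33.8% farther in. The first 1 Mb exceeded the stretch at 20 to 50 Mb on 20 of 20 autosomes. The same shares were counted without the members up to 100 kb from a run. The share was then 52.7% of 1412 members in the first 1 Mb and 53.5% at 2 to 5 Mb, against 30.5% at 20 to 50 Mb and 27.0% farther in. The gradient from the ends was present in members far from runs, with the autosomes pooled and not compared singly. In both counts, the bin beyond 50 Mb leaves out chromosomes too short to reach it. These include chromosomes 10, 16, 19 and 20, where the upper class was the majority. With all members counted, 14 autosomes had at least 100 members in this bin. The step into it therefore also holds a change of chromosomes.

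**Figure D2:**
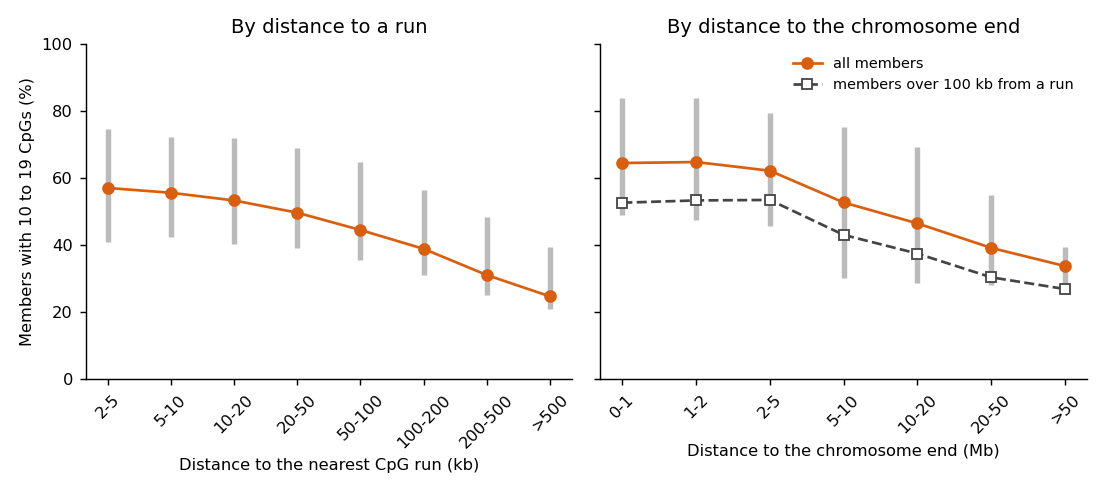
Percent of members with 10 to 19 CpGs (y axis) by distance to the nearest CpG run in kb (left) and to the nearer chromosome end in Mb (right). Ends are base 1 and the last listed CpG. Orange points are all autosomal members, grey bars span the lowest to the highest autosome with at least 100 members in the bin, and open squares are members over 100 kb from a run. The share was 57.1% at 2 to 5 kb and 24.7% beyond 500 kb from a run. It was 64.5% in the first 1 Mb and 33.8% beyond 50 Mb from an end, a bin that short chromosomes do not reach (14 autosomes).

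In windows of 1 Mb the mix of the classes varied several-fold. Of 2684 windows with a member, 2238 had at least 500, and these held 89.0% of all members. On chromosome 19, the autosome with the highest 10 to 19 share, 21 windows passed this limit over a span of 64.4 Mb. The window values therefore leave out much of that chromosome. The median window had 38.4% of its members in the upper class, with quartiles of 26.9% and 53.2%. Upper-class tiles were the majority in 650 windows, or 29.0%. The lowest share was 14.0% of 514 members, on chromosome 5 from base 89000001 to 90000000. Next came 15.4% on chromosome 12 from base 10000001 to 11000000 and 15.5% on chromosome 9 from base 107000001 to 108000000.

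The highest share was 83.4% of 547 members, on chromosome 1 from base 18000001 to 19000000. It was followed by 82.3% on chromosome 20 from base 82000001 to 83000000 and 80.8% on chromosome 16 from base 9000001 to 10000000. Chromosome 5, the lowest autosome, also had a window at 76.0%, and chromosome 16 had a window at 18.3%. Both ranges exceeded that between whole chromosomes. These windows were not assigned to genes, because the genome build is not named in the sources used here.

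Members were followed by a tile of their own class more often than the share of that class among all tiles. After a tile of 5 to 9 CpGs, the next tile was of the same class in 42.9% of cases, while this class made up 34.7% of all tiles of the span, tiles without a CpG included. After a tile of 10 to 19 CpGs, the next was of the same class in 39.3%, against 24.4% of all tiles. Both excesses were present on 20 of 20 autosomes. The lower class led into sparse tiles of 1 to 4 CpGs in 27.7% of cases and into tiles of 20 or more away from runs in 4.54%. The upper class led into sparse tiles in 13.5% and into tiles of 20 or more in 12.6%.

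The likeness of neighbours fell off within a few kb and more slowly beyond. For the upper class, the share of same-class tiles was 36.4% at 2 kb, 33.9% at 5 kb, 32.9% at 10 kb, 30.98% at 100 kb and 28.4% at 1000 kb. For the lower class it was 41.6% at 2 kb, 40.04% at 10 kb, 38.9% at 100 kb and 37.8% at 1000 kb. At every distance examined, both classes stayed above their share of all tiles, tiles without a CpG included. Among tiles with a listed CpG alone, these shares were 37.0% for the lower class and 26.0% for the upper class. The lower class at 1000 kb, at 37.8%, was near the first of these. Chromosomes were pooled, and the lower class made up 18.1% to 41.6% of such tiles on single autosomes. How much of the likeness at long distance this pooling gives was not tested.

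**Figure D3:**
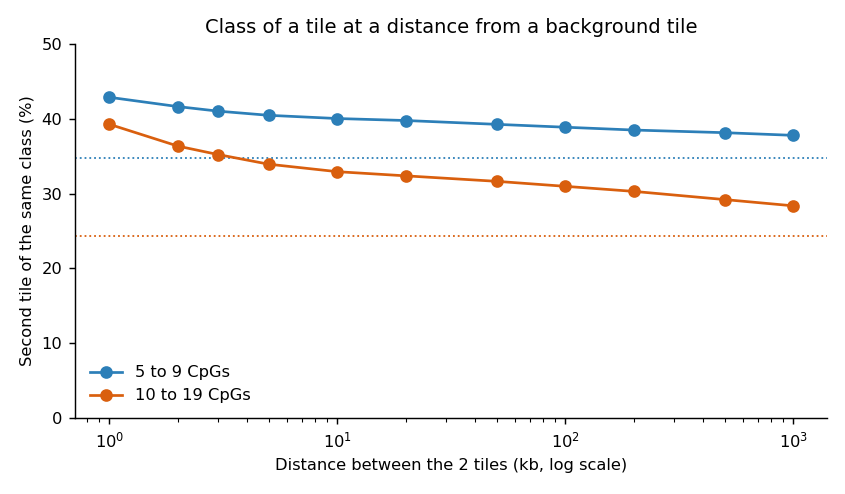
Percent of tiles at a given distance (x axis, kb, log scale) downstream of a background tile that were of the same class (y axis), for tiles of 5 to 9 CpGs (blue) and of 10 to 19 CpGs (orange). Dotted lines mark each class's share of all tiles of the autosomal span, tiles without a CpG included. The orange line was at 39.3% for adjacent tiles and 28.4% at 1000 kb, above its dotted line at 24.4%.

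Unbroken stretches of members were mostly short. Members of either class formed 504886 stretches with a median of 2 tiles, and 36.4% of the stretches were a single tile. Stretches of 10 or more tiles held 19.8% of the members. The longest ran over 84 tiles on chromosome 13, from base 87537001 to 87621000. Within a class, stretches were shorter, with 90% of them at 3 tiles or fewer in both classes. The longest stretch of 10 to 19 CpGs had 31 tiles, on chromosome 11 from base 35537001 to 35568000. The longest of 5 to 9 CpGs had 16 tiles, and 4 stretches were of this length. They began at bases 10114001 and 79552001 of chromosome 6, at base 40538001 of chromosome 11 and at base 45335001 of chromosome 18.

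CpGs were not spread evenly inside the members, and less so in the upper class. Each tile was cut into 5 parts of 200 bases, and the variance of the CpG counts of the parts was divided by their mean. This index averages 1 where each CpG falls into any part independently of the others, whatever the number of CpGs in the tile. It averaged 1.24 in tiles of 5 to 9 CpGs and 1.80 in tiles of 10 to 19. The autosomes lay between 1.21 and 1.44 in the lower class and between 1.59 and 1.98 in the upper class, and the upper class was higher on 20 of 20. The lower class was most even on chromosome 18 and least on chromosome 19, while the upper class was most even on chromosome 20 and least on chromosome 5.

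The index was higher with each added CpG throughout the members. It was 1.14 in tiles of 5 CpGs, 1.40 in tiles of 9, 1.49 in tiles of 10 and 2.43 in tiles of 19. Outside the members it continued to 3.13 in tiles of 25 CpGs and was lower beyond, at 2.39 in tiles of 40. Sparse tiles of 4 CpGs were at 1.10. At least 50% of the CpGs lay in a single part in 37.5% of the tiles of 5 to 9 CpGs and in 24.2% of those of 10 to 19, a measure that small counts reach more easily.

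**Figure D4:**
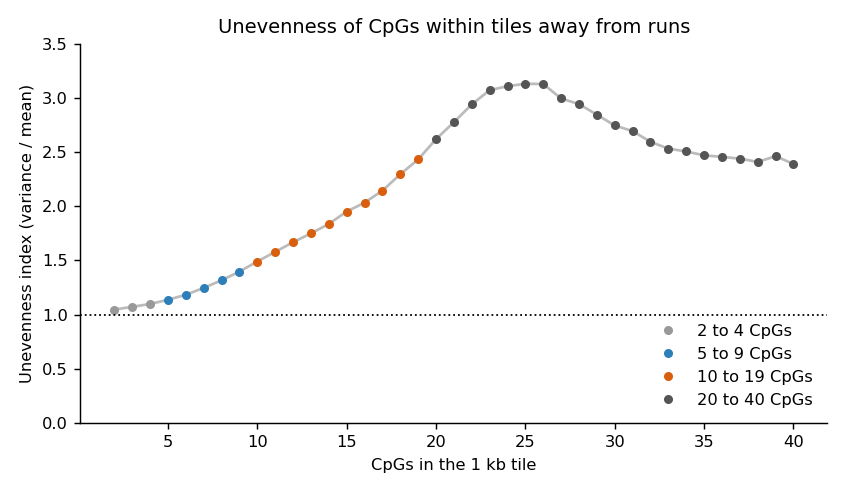
Mean unevenness index (variance over mean of CpG counts in 5 parts of 200 bases, y axis) of tiles away from runs, by the number of CpGs in the tile (x axis). Colours mark the classes and the dotted line marks 1. The mean was 1.14 at 5 CpGs and 2.43 at 19 CpGs, with no step between the classes.

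Neighbouring CpGs of the same tile were a median of 82 bases apart in the lower class and 39 bases apart in the upper class, with quartiles of 33 and 173 bases and of 16 and 87 bases. Spacings were not compared at equal numbers of CpGs per tile. Among all spacings, 8.05% in the lower class and 17.3% in the upper class were no longer than 10 bases. Between autosomes the median ranged from 37 to 40 bases in the upper class and from 72 (chromosome 19) to 84 bases in the lower class.

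Some exact spacings were more frequent than those beside them. Each spacing from 2 to 99 bases was compared with its surroundings, as the ratio of its count to the median over the nearest spacings (up to 8 shorter and 8 longer), and a ratio above 1.3 was taken as over-represented. In tiles of 5 to 9 CpGs this held for 8 bases alone, at 1.37, and the spacing of 32 bases came next, at 1.26. In tiles of 10 to 19 it held for 5 spacings. These were 8 bases at 1.82, 4 bases at 1.53, 32 bases at 1.46, 24 bases at 1.34 and 38 bases at 1.31. The spacing of 8 bases occurred 61888 times in the lower class and 229074 times in the upper class.

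The profile of spacings changed with density beyond these members. Tiles of 20 or more CpGs away from runs had 9 over-represented spacings, with 8 bases at 2.29, 4 bases at 2.24 and 38 bases at 2.05. Tiles of 1 to 4 CpGs had none, and 8 bases reached 1.28 there. Not every spacing followed this order, and the spacings of 32 and 10 bases are examples. It was at 1.26 in the lower class and 1.46 in the upper class, and it was not among the over-represented spacings of tiles of 20 or more CpGs. When all pairs of CpGs of a tile were counted rather than neighbours alone, 32 bases was over-represented in the lower class (1.31), the upper class (1.63) and tiles of 20 or more (1.60). In this count the upper class had 12 over-represented distances, which included 56 bases at 1.54 and 16 bases at 1.46, and the lower class had 2, which were 8 and 32 bases.

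**Figure D5:**
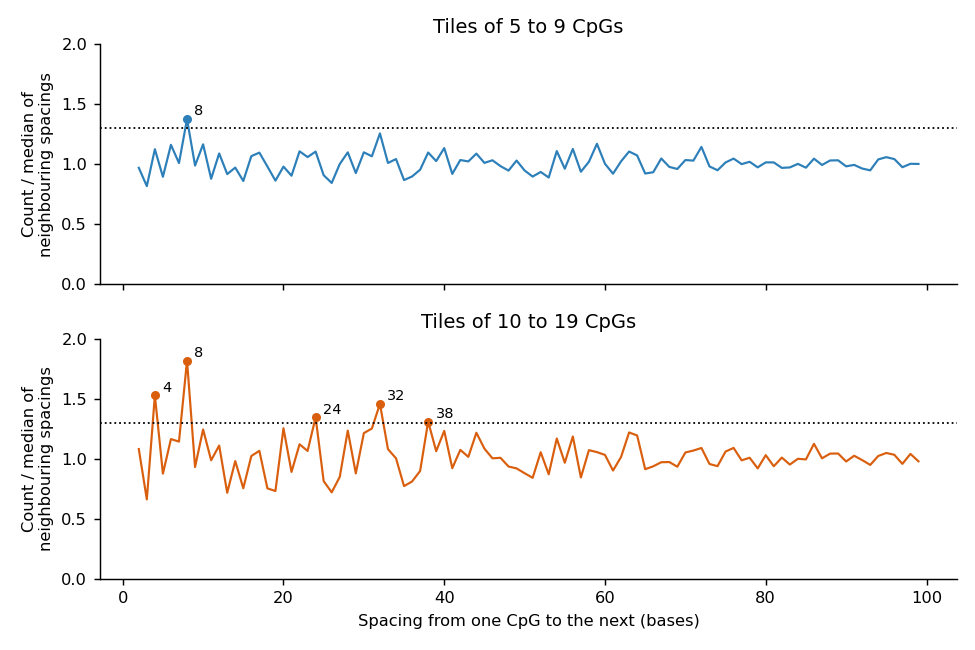
Count of each spacing between neighbouring CpGs of a tile, as a ratio to the median over the nearest spacings, up to 8 shorter and 8 longer (y axis), by spacing in bases (x axis), for tiles of 5 to 9 CpGs (top) and of 10 to 19 CpGs (bottom). Points mark spacings above the dotted line at 1.3, which were 8 bases in the lower class and 4, 8, 24, 32 and 38 bases in the upper class.

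Fixed orders of spacings recurred in both classes, and the leading orders differed between them. Runs of 5 consecutive spacings (6 CpGs) that lay wholly inside a tile were counted. In tiles of 10 to 19 CpGs, the most frequent order was 4, 5, 38, 2 and 4 bases, found 1915 times, or 1064 times where runs were set at 20 or more CpGs and more tiles were left out. Its reverse, 4, 2, 38, 5 and 4 bases, came second with 1816. The third, 7, 4, 5, 38 and 2 bases, with 1480, overlaps the first by 4 of its spacings. Per 100000 runs of 5 spacings, the first order occurred 3.93 times in tiles of 5 to 9 CpGs, 34.8 times in those of 10 to 19 and 225 times in tiles of 20 or more away from runs. Of its 13501 copies inside autosomal tiles, the lower class held 0.481% and the upper class held 14.2%.

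In tiles of 5 to 9 CpGs, the most frequent order was 34, 81, 118, 13 and 14 bases, found 125 times, and its reverse was found 115 times. These 6 CpGs span 260 bases, against 53 bases for the leading order of the upper class. The lower class held 71.8% of its 174 copies inside autosomal tiles, the upper class held 27.0%, and tiles of 20 or more CpGs held 2 copies. Its rate was 7.55 per 100000 runs of 5 spacings in the lower class and 0.855 in the upper class. As the order was picked for its count in the lower class, this excess is partly set by the choice. On the X chromosome its rate was 28.8 in the lower class and 6.35 in the upper class. Per 1000 tiles, read in this direction, it was 0.468 and 0.509 there. The third order of the lower class was 59, 18, 67, 22 and 50 bases, found 67 times there and 80 times in the upper class. A tile of 5 CpGs cannot hold any run of 5 spacings.

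The leading orders were spread over the genome. That of the upper class was found on 20 of 20 autosomes, with 37 to 178 copies each. That of the lower class was found on 19 of 20, with up to 16 copies, on chromosome 6. Counted in both directions, it occurred 0.255 times per 1000 tiles of its class over the autosomes together, from 0.0390 on chromosome 10 to 0.435 on chromosome 6. The order of the upper class, counted likewise, occurred 5.65 times per 1000 tiles, from 3.36 on chromosome 20 to 7.98 on chromosome 5.

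Recurring orders covered a small part of the members. In the upper class, 765 orders were seen 50 times or more, and they held 2.12% of its 5496980 runs of 5 spacings. In the lower class 6 orders reached that number, and they held 0.0300% of 1655052. Only exact matches were counted, so copies with a lost or gained CpG were missed. The table gives positions without sequence, and a genome in its coordinates was not used here. Whether the recurring orders belong to repeats was not tested.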

How the data were processed

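One BED-like table without a header was deposited by the authors. Columns 1 to 3 hold the chromosome, start and end of each cytosine. The 12 further columns, which have no name, were not used. Bismark, a bisulfite aligner and caller, is named per the submitters' processing notes, without a version. Build and site filters are not named in the sources used here, so the listed CpGs may be a selection. The gene tables at hand belong to another assembly and were not used.

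Each end coordinate was taken as the 1-based position. Tiles, runs, spacings and distances were computed with Python 3.11.15, numpy 2.4.6, pandas 2.3.3 and scipy 1.17.1, and figures were drawn with matplotlib 3.10.9. The code was tested on simulated positions. Distance to a run is from the tile's nearest edge, and chromosome ends are base 1 and the last listed CpG. Orders of 5 spacings were matched where no spacing exceeded 255 bases, and rates are over all runs of 5 spacings. No test was made, since the values are full counts. Regions were named by rule (the longest stretches and the 3 highest and 3 lowest windows). The members and choices were made with earlier results of these data known. A share was taken to move with a setting beyond its 95% exact binomial interval over tiles, an index or a median beyond the SD over autosomes or windows, a count beyond 1.5 times, and a fold range where it differed at 3 significant digits. The interval serves as a yardstick of size only, since neighbouring tiles are alike and the counts are complete.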

Additional observations from a re-analysis of the deposited data

How the results depend on the processing

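No paired analysis was possible because the value columns carry no names. Of 72 main values under other settings, 37 moved by the limits set for each kind of value, which are narrow for shares and fold ranges, and the cause was not tested. With tiles shifted by 500 bases, the range of the 10 to 19 share over autosomes was 2.08-fold against 2.09-fold. With no distance to runs, members made up 64.5% of tiles and 60.5% of CpGs, the 10 to 19 share was 41.8% and its range 2.11-fold. With 5000 bases from runs these were 60.8%, 56.5%, 40.7% and 2.07-fold, and the next tile was of the same class in 43.02% (5 to 9 CpGs) and 39.1% (10 to 19). With runs of 20 or more CpGs they were 57.4%, 52.8%, 39.9%, 2.07-fold, 43.2% and 38.9%. With CpGs of a run at most 100 bases apart they were 61.5%, 57.001%, 40.6% and 2.06-fold, with 42.99% for the next tile of 5 to 9. Without chromosome 19 they were 63.2%, 59.7%, 40.9% and 1.90-fold. Of all tiles of the span, members made up 59.1%. In parts of 100 bases the unevenness index was 1.14 and 1.44. On the X chromosome alone there were 57688 and 27516 tiles, which made up 59.6% of tiles and 64.7% of CpGs, with a 10 to 19 share of 32.3%, next tiles of the same class in 43.2% and 31.6% and an index of 2.002 for 10 to 19 CpGs.

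The other 81 values included 16 that moved. With runs of 20 or more CpGs, the leading order of the upper class had 1064 copies against 1915. The 10 to 19 share up to 5 kb from a run was then 49.9% against 57.1%. This share was 60.2% with no distance to runs and 58.6% with CpGs of a run at most 100 bases apart. Without chromosome 19 it was 56.2%, and on the X chromosome alone 49.2%. In the first 1 Mb from an end, against 64.5%, the share was 62.1% with runs of 20 or more CpGs. It was 65.6% with no distance to runs and 48.0% on the X chromosome alone. The range over autosomes has no value on the X chromosome alone, and the share nearest to runs has none at 5000 bases. Positions that were not listed, for whatever reason, cannot be seen in these counts, and read depth per site was not analysed here.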

Other observations

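The X chromosome, taken by the same rule, had a larger share of its members in the lower class than the autosomes together. The leading order of each class was also more frequent there. Tiles of 10 to 19 CpGs made up 41.2% of the autosomal members and 32.3% of the 85204 members on the X chromosome, a share between those of chromosomes 5 and 12. The order 34, 81, 118, 13 and 14 bases, counted in both directions, occurred 0.255 times per 1000 tiles of 5 to 9 CpGs on the autosomes (240 copies) and 0.936 times on the X chromosome (54 copies). All 20 autosomes lay below the X chromosome. The order 4, 5, 38, 2 and 4 bases occurred 5.65 times per 1000 tiles of 10 to 19 CpGs on the autosomes and 8.32 times on the X chromosome, again above 20 of 20 autosomes, although chromosome 5 came close at 7.98. These comparisons were made after the counts had been seen and were not tested.

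Within tiles of 10 to 19 CpGs, CpGs were also less even on the X chromosome. The unevenness index averaged 1.80 on the autosomes and 2.002 on the X chromosome, just above chromosome 5, the highest autosome, at 1.98. Chromosome 5 and the X chromosome were also the lowest in the share of upper-class tiles. In tiles of 5 to 9 CpGs the index was 1.24 on the autosomes and 1.22 on the X chromosome, within the autosomal range.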
